A study of Mus musculus with 56 samples.

Results

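T cells recognise antigen with a receptor made of a beta and an alpha chain. Each beta chain is assembled from 1 of many V segments (TRBV), a D and a J segment (TRBJ), and the joint between them forms the CDR3 loop that contacts the antigen peptide. Because the joint is made at random in each developing cell, T cells with the same CDR3 nucleotides in 1 animal usually descend from 1 cell. The same CDR3 protein loop in different animals, written in different nucleotides, is usually taken to come from separate joining events. TRBV14 and TRBV16 are a pair of V segments of the mouse beta chain locus. In the RefSeq annotation of GRCm38.p6, Trbv14 (older name Tcrb-V13) lies on chromosome 6 from 41135167 to 41135616. Trbv16 (older name Tcrb-V11) lies on the same chromosome from 41151791 to 41152230, and Trbv15 is annotated between them. All 3 are annotated as V segments.

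T cells from mouse hepatocellular carcinoma were sequenced with a 10x 5′ assay that reads the paired receptor chains of single cells. The 15 receptor libraries came from 14 animals in 5 groups, all with a Myc transgene by genotype label. The groups were 3 female luc NICD animals, 3 female lucOS NICD animals, 3 female luc sgp53 animals, 3 female lucOS sgp53 animals and 2 male lucOS NICD animals. As background, luc is luciferase, lucOS is luciferase joined to model T cell antigens, NICD is the active intracellular part of NOTCH1, and sgp53 is a guide RNA against the p53 tumour suppressor gene. Female lucOS sgp53 replicates 3 and 4 were separate tumours of 1 animal and were averaged as 1 animal. CD45+ and CD45- cells had been separated and mixed again in equal parts before loading, so the libraries do not give the abundance of T cells in a tumour. The genotype label of luc NICD female replicate 2 lacks the comma of the others and was read as luc NICD. Age and strain are not given in the labels of these libraries, and no label describes a promoter. The female NICD animals carry animal numbers from 1 block and the sgp53 animals carry numbers outside it, so driver and number block cannot be told apart.

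A T cell was a barcode called as a cell with a productive, high-confidence beta contig, and the contig with most unique molecular identifiers (UMIs) was kept. A clonotype was a set of T cells with the same TRBV, TRBJ and CDR3 protein sequence. By this rule 851 of 7605 T cells (11.2%) carried a member gene, 443 with TRBV14 and 408 with TRBV16. They made up 144 TRBV14 and 266 TRBV16 clonotypes of 4814 in all. The libraries held between 49 and 1282 T cells, with a median of 557. Female luc NICD replicates 2 and 3, with 77 and 49 T cells, were the smallest. Between 66.2 and 87.7% of a library's T cells also had a productive alpha chain. Of 7566 T cell barcodes, 39 occurred in 2 or more libraries, 1 of them with the same clonotype, and 9 member T cells had such a barcode.

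The receptors that recurred between animals or grew largest are shown by the nucleotides of their CDR3, 5′ to 3′, as the deposited contigs give them. Each receptor has a number within its V gene. Where a receptor had several nucleotide forms, capitals mark the positions at which the forms differ. Where it had 1 form, capitals mark the bases between the V end and the J end shared by most clonotypes, D bases included. An alpha chain with 1 form has no capitals. The forms of TRBV14 receptor 1 (TRBV14 with TRBJ2-7) show the same protein loop written in different nucleotides in 3 lucOS animals, and its alpha chain (TRAV10 or its copy TRAV10N, with TRAJ16) is shown with it.
TRBV14 receptor 1, form 1: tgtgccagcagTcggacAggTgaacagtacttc
TRBV14 receptor 1, form 2: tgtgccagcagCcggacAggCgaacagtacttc
TRBV14 receptor 1, form 3: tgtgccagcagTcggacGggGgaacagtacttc
TRBV14 receptor 1, alpha form 1: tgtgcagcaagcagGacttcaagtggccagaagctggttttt
TRBV14 receptor 1, alpha form 2: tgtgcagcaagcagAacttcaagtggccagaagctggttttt

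TRBV14 receptor 3 (TRBJ2-1) has a different beta CDR3 and the alpha CDR3 protein of the receptor above.
TRBV14 receptor 3: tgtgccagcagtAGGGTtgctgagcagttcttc
TRBV14 receptor 3, alpha: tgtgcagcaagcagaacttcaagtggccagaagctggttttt

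TRBV16 receptor 1 (TRBJ2-5) is shown with its 6 beta forms because it was found in more animals than any other clonotype of the series. TRBV16 receptor 2, with the same J segment, is shown with its 5 forms because it occurred in 4 lucOS animals.
TRBV16 receptor 1, form 1: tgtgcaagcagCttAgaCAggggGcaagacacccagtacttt
TRBV16 receptor 1, form 2: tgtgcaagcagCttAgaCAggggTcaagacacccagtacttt
TRBV16 receptor 1, form 3: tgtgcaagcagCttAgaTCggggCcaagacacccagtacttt
TRBV16 receptor 1, form 4: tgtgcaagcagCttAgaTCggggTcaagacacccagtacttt
TRBV16 receptor 1, form 5: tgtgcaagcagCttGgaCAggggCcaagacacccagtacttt
TRBV16 receptor 1, form 6: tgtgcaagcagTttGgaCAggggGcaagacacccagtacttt
TRBV16 receptor 1, alpha form 1: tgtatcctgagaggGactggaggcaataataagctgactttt
TRBV16 receptor 1, alpha form 2: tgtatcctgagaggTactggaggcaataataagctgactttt
TRBV16 receptor 1, alpha form 3: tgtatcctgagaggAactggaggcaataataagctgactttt
TRBV16 receptor 2, form 1: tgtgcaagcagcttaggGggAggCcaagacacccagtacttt
TRBV16 receptor 2, form 2: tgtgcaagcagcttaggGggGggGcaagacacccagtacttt
TRBV16 receptor 2, form 3: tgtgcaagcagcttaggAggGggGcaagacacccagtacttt
TRBV16 receptor 2, form 4: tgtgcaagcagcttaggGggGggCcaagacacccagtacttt
TRBV16 receptor 2, form 5: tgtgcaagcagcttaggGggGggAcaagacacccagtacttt
TRBV16 receptor 2, alpha form 1: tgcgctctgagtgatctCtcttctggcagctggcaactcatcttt
TRBV16 receptor 2, alpha form 2: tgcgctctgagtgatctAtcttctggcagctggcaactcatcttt
TRBV16 receptor 2, alpha form 3: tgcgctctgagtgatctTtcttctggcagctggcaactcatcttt

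TRBV16 receptors 6 (TRBJ2-7) and 7 (TRBJ2-5) are the largest private clones of the gene, each seen in 1 animal.
TRBV16 receptor 6: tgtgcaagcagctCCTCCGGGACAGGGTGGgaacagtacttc
TRBV16 receptor 7: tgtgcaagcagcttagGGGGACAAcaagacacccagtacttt

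TRBV14 was carried by few T cells in luc NICD tumours and by many in 2 of 3 lucOS sgp53 animals. Its share of T cells was 2.10, 1.30 and 2.04% in luc NICD females and 2.55, 1.99 and 3.73% in lucOS NICD females. In sgp53 females it was 5.22, 3.84 and 3.91% with luc and 12.8, 2.90 and 9.42% with lucOS. The 2 lucOS NICD males had 2.69 and 1.58%. Each luc sgp53 animal lay above each luc NICD animal, while the lucOS sgp53 and lucOS NICD ranges overlapped through lucOS sgp53 replicate 2. Between luc groups, all sgp53 animals lay above all NICD animals for 10.0% of the 20 TRBV entries tested.

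TRBV16 shares of T cells were highest in 2 lucOS animals. They were 3.50, 2.60 and 4.08% in luc NICD females and 15.05, 4.64 and 5.22% in lucOS NICD females. In luc sgp53 females they were 4.73, 6.51 and 4.49%, and in lucOS sgp53 females 4.76, 9.18 and 3.27%. The males had 3.41 and 3.002%. As for TRBV14, each luc sgp53 animal lay above each luc NICD animal, which held for 10.0% of entries. Lowest in order of group means were the lucOS NICD males (3.21%) and the luc NICD females (3.39%), and highest were the lucOS NICD females (8.30% ± 5.85, SD, n = 3). That highest group overlapped both sgp53 groups. All 3 lucOS NICD females lay above all 3 luc NICD females, as they did for 5.00% of entries, and above both males, as they did for 10.0%. No female luc NICD library had over 10 TRBV16 T cells, so a single cell moved those shares visibly.

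**Figure D1:**
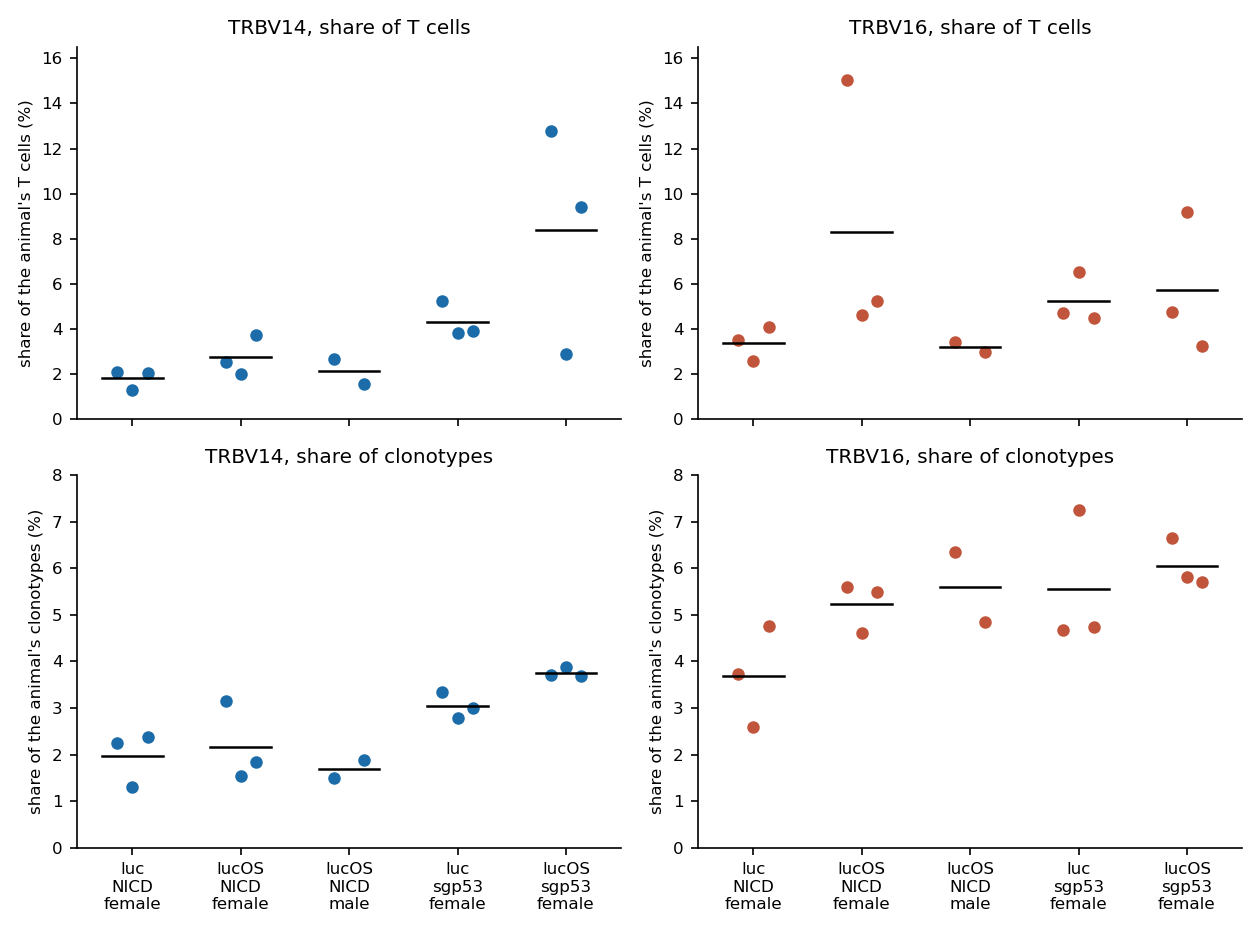
Each point is 1 animal, with the share of its T cells (upper row) or clonotypes (lower row) that used TRBV14 (left) or TRBV16 (right), in percent; bars are means of the 3 animals (2 for the males). The T cell shares spread widely in the lucOS groups, up to 12.8% for TRBV14 and 15.05% for TRBV16, while clonotype shares stay under 8%.

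None of the 20 TRBV entries (0%) passed an adjusted p of 0.05 in the share of T cells in any of 3 comparisons of the 12 females. These were exact permutation tests, two-sided, with labels permuted within the other factor, Benjamini-Hochberg adjusted over the entries, and a smallest possible p of 0.005. At an unadjusted p under 0.05 there were 4 entries (20%) for lucOS minus luc, 1 (5.00%) for NICD minus sgp53 and 1 (5.00%) for the difference of antigen effects. For NICD minus sgp53, TRBV14 was that entry: its mean share was 2.28% in NICD and 6.35% in sgp53 animals, a difference of -4.06 percentage points (exact permutation p = 0.01, adjusted p = 0.20). For lucOS minus luc, TRBV14 had 5.56 against 3.07% (difference 2.49 points, exact permutation adjusted p = 0.367). TRBV16 had 7.02 against 4.32% (2.70 points, exact permutation adjusted p = 0.367) for lucOS and luc, and 5.85 against 5.49% (0.36 points, exact permutation adjusted p = 0.96) for NICD and sgp53. The antigen effect in NICD minus that in sgp53 was -3.10 points for TRBV14 and 4.42 points for TRBV16, with an exact permutation adjusted p of 0.82 for each. These sizes moved when single animals were left out: without lucOS sgp53 female replicate 1 the TRBV14 value was -0.89 points and without replicate 2 it was -5.84, and without lucOS NICD female replicate 1 the TRBV16 value was 1.04. The lucOS minus luc difference of TRBV16 was 1.02 points without lucOS NICD female replicate 1 and 1.84 without lucOS sgp53 female replicate 2, and that of TRBV14 was 1.39 points without lucOS sgp53 female replicate 1 and 3.86 without replicate 2. A test on T cell counts per animal, edgeR's quasi-likelihood test, gave other calls for TRBV14: log2 fold changes of 1.23 for lucOS over luc (adjusted p = 0.0186), where 15% of the 20 entries passed edgeR's test, and of -1.46 for NICD against sgp53 (adjusted p = 0.0100), where 5.00% passed. Both edgeR's test and the permutation test on shares of T cells count each T cell of a clone separately. The reason for the different calls was not tested. TRBV14 and TRBV16 were chosen with earlier results of these data known. The p-values of these share comparisons, edgeR's included, therefore describe the data and support nothing by themselves.

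Counted by clonotype, so that a large clone counts once, TRBV14 had lower values in NICD than in sgp53 animals, with 1 exception. Its share of clonotypes was 2.24, 1.30 and 2.38% in luc NICD, 3.15, 1.54 and 1.83% in lucOS NICD, 3.33, 2.79 and 3.002% in luc sgp53, and 3.72, 3.87 and 3.70% in lucOS sgp53 females. The males had 1.49 and 1.89%. Only lucOS NICD female replicate 1, at 3.15%, reached the range of the sgp53 animals. The 3 lucOS sgp53 animals lay between 3.70 and 3.87%, although their T cell shares ran from 2.90 to 12.8%. Within lucOS, sgp53 lay above NICD for 25.0% of entries, and within luc for 10.0%. The NICD minus sgp53 difference was -1.33 points for TRBV14 (exact permutation p = 0.005, the smallest possible, adjusted p = 0.10). For TRBV16 it was -1.34 points (exact permutation p = 0.015, adjusted p = 0.10), from clonotype shares of 2.60 to 5.59% in NICD and 4.67 to 7.26% in sgp53 females. No entry (0%) passed the adjusted threshold, and 4 entries (20%) had an unadjusted p under 0.05. As for T cell shares, the p-values of clonotype shares describe the data and support nothing by themselves. The lucOS minus luc differences of clonotype shares were 0.46 points for TRBV14 and 1.02 points for TRBV16, each with an exact permutation adjusted p of 0.50. Of the entries, 0% passed that threshold and 2 (10.0%) had an unadjusted p under 0.05. In sgp53 animals each lucOS value of TRBV14 lay above each luc value, as for 15% of entries. Female NICD libraries held 49 to 432 T cells and sgp53 libraries 402 to 1282, and the part of depth in these differences was not tested.

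By mean share over the 14 animals, TRBV16 ranked 8th of 22 TRBV entries in T cells (5.32% ± 3.26) and 9th in clonotypes (5.20% ± 1.196). TRBV14 ranked 11th in T cells (4.00% ± 3.26) and 18th in clonotypes (2.59% ± 0.90). The entries whose T cell shares ran most like TRBV14 over the 14 animals were TRBV29 (Spearman rho 0.45), TRBV16 (0.39) and a joined TRBV12-2+TRBV13-2 annotation (0.32). For TRBV16 they were TRBV14 (0.39), TRBV13-3 (0.37) and TRBV1 (0.35). All are low, and shares of 1 library add to a whole, so they are linked to each other.

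The high TRBV14 and TRBV16 shares were made of few large clones. The largest TRBV14 clonotype held 97 of 164 TRBV14 T cells in lucOS sgp53 female replicate 1, 51 of 65 in replicate 3 and 51 of 62 in replicate 4. In lucOS sgp53 female replicate 2, with a low TRBV14 share, it held 10 of 24. In lucOS NICD females the largest held 3 of 11, 2 of 3 and 8 of 10 TRBV14 T cells, and in the males 12 of 15 and 4 of 10. In luc sgp53 females it held 8 of 21, 7 of 23 and 6 of 27. In luc NICD females all 8 TRBV14 clonotypes and all 14 TRBV16 clonotypes were single cells, in libraries of 286 T cells at most. For TRBV16, 42 of 65 T cells of lucOS NICD female replicate 1 and 45 of 76 of lucOS sgp53 female replicate 2 belonged to 1 clonotype each. In every other library the largest TRBV16 clonotype held 6 T cells at most. Of all clonotypes, 122 of 144 with TRBV14 and 244 of 266 with TRBV16 were seen in 1 T cell.

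**Figure D2:**
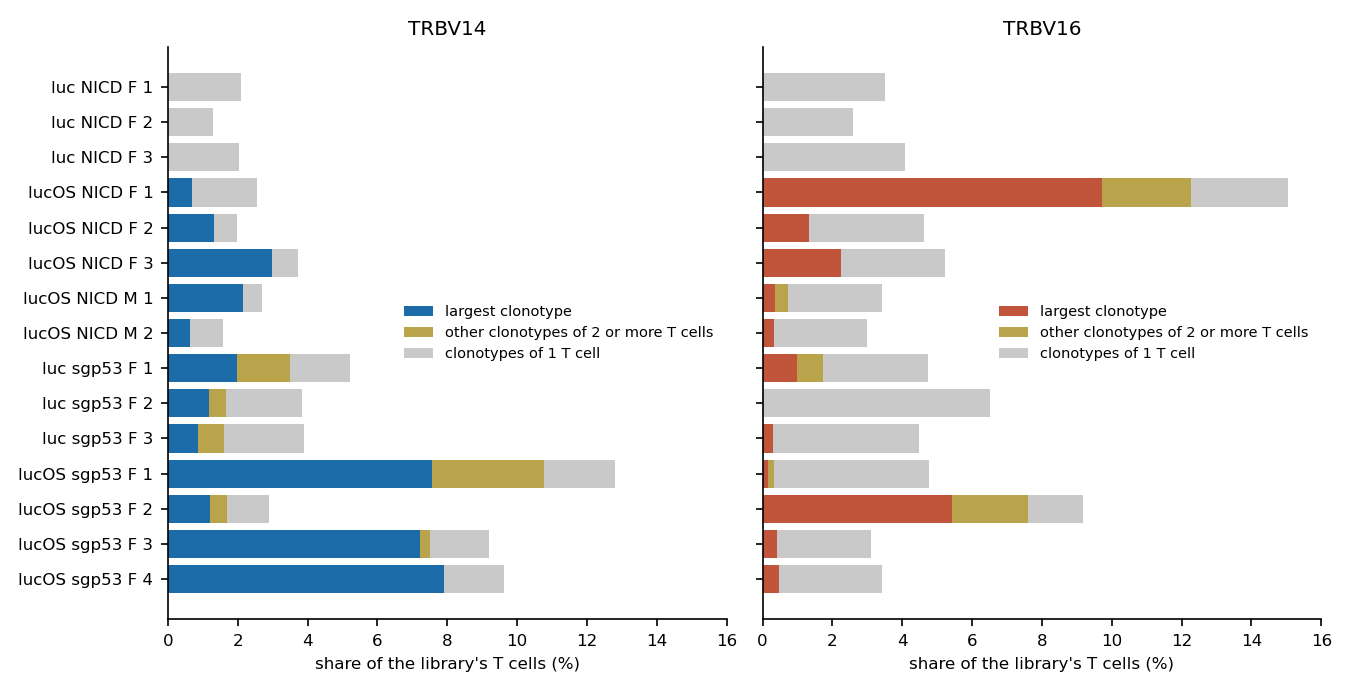
Bars give the share of each library's T cells with TRBV14 (left) or TRBV16 (right), divided into the largest clonotype, other clonotypes of 2 or more T cells and clonotypes of 1 T cell; rows are libraries, F female and M male. The long bars belong to lucOS libraries and consist mostly of the largest clonotype, 7.57% of T cells for TRBV14 in lucOS sgp53 female 1 and 9.72% for TRBV16 in lucOS NICD female 1.

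Without the clonotypes of 40 or more T cells (a limit chosen after seeing the data), TRBV14 made up 3.52% ± 1.91 (SD, n = 3 animals) of T cells in lucOS sgp53 and 4.32% ± 0.78 in luc sgp53 animals. With them the lucOS sgp53 mean was 8.37% ± 5.03. The TRBV16 mean without them was 5.25% ± 0.63 in lucOS NICD females, close to the 5.24% ± 1.11 of luc sgp53 females, and 3.99% ± 0.75 in lucOS sgp53 females. These values were not tested, since the clonotypes were picked by size.

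The share of T cells in clonotypes of 2 or more cells averaged 54.8% for TRBV14 and 37.7% for the other T cells of the same animals, and it was higher for TRBV14 in 7 of 11 animals. The difference of 17.0 points ± 25.0 (SD) did not pass the test (exact sign-flip permutation adjusted p = 0.115), where 30.0% of entries did. The 3 luc sgp53 animals had 66.7, 43.5 and 40.7% of TRBV14 T cells in such clonotypes against 29.9, 13.4 and 11.0% of their other T cells. With a clone size of 3 or more in place of 2, the TRBV14 difference was 21.8 points and passed (exact permutation adjusted p = 0.0369). The other 11 of 12 alternative settings, a still larger clone size among them, did not pass. For TRBV16 the mean was 28.5 against 37.5%, lower in 8 of 12 animals, a difference of -9.00 points ± 25.9 (exact permutation adjusted p = 0.350). Single animals lay on both sides. Of TRBV16 T cells, 81.5% were in such clonotypes in lucOS NICD female replicate 1 and 6.56% in lucOS sgp53 female replicate 1, against 35.4 and 38.3% of the other T cells.

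Among the clonotypes of the series found in 2 or more animals, TRBV14 receptor 1 had the most T cells, 201, in 3 animals. It held 97 of 1282 T cells (7.57%, Wilson 95% interval 6.24 to 9.14%) in lucOS sgp53 female replicate 1. In the pair of tumours of 1 animal, replicates 3 and 4, it held 51 of 706 (7.22%, 5.54 to 9.37%) and 51 of 644 (7.92%, 6.07 to 10.3%), so the 2 tumours did not differ beyond counting error. In lucOS NICD female replicate 2 it held 2 of 151 T cells. It was not found among 2104 luc T cells of 6 animals, which allows a share of up to 0.143%, nor among 828 T cells of lucOS sgp53 female replicate 2 (up to 0.362%) or 1190 T cells of the males (up to 0.252%). These limits and intervals cover counting error only.

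Its 3 beta nucleotide forms were each found in 1 animal. Counting from 1 at the 5′ end of the CDR3, form 2 differs from form 1 by T12C and T21C, and form 3 by A18G and T21G. All 183 of its T cells with an alpha chain, in all 3 animals, had the same alpha CDR3 protein with TRAJ16. The alpha chain had 2 nucleotide forms that differ by G15A, form 1 in 97 T cells of 2 animals and form 2 in 86 T cells of the third animal. Of the series' other T cells, 7 had this alpha CDR3, and all 7 belonged to TRBV14 receptor 3 in lucOS NICD female replicate 3, where that receptor held 8 of 268 T cells. So 4 of 8 lucOS animals and 0 of 6 luc animals held a TRBV14 receptor with this alpha CDR3. The lucOS animals held 5501 T cells and the luc animals 2104. How many other receptors of the series were found in lucOS animals only was not counted, and the part of depth was not tested. No other clonotype with TRBV14 and TRBJ2-7 was 1 residue away from receptor 1.

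Contigs of TRBV14 receptor 1 also lay in 18 barcodes not called as cells in 11 libraries without its T cells, 7 of these barcodes in luc libraries. In 16 of the 18 the barcode was that of a T cell of the receptor in another library. They had a median of 2.08 reads per UMI, against 823 in the T cells of the receptor. Such barcodes are not in any count of T cells above. The 551 barcodes not called as cells in the receptor's own libraries had a median of 1 UMI.

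TRBV16 receptor 1 was the only clonotype of the series found in 6 animals, and these were the 6 sgp53 animals. It was rare, with 4, 1 and 2 T cells in the luc sgp53 and 2, 1 and 1 in the lucOS sgp53 animals, 11 in all, or 0.995% of T cells at most. Among 2453 T cells of the 8 NICD animals it was not found, which allows a share of up to 0.122%. In the 6 sgp53 libraries that held it, its share was 0.121 to 0.995%, and lucOS sgp53 female replicate 3, a tumour of the same animal as replicate 4, had 0 of 706 T cells. Of its 6 nucleotide forms, 2 occurred in 2 animals each. Form 2 differs from form 1 by G24T, form 4 by C18T, A19C and G24T, and form 6 by C12T and A15G. All 10 of its T cells with an alpha chain, from 5 animals, had 1 alpha CDR3 protein of TRAV21-DV12 and TRAJ56, in 3 nucleotide forms that differ at position 15 (G15T and G15A). Only 2 other T cells had this alpha. Its beta forms had between 7 and 13 bases outside the shared V and J ends, D bases included.

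TRBV16 receptor 2 held 11 T cells in 4 lucOS animals: 3 in lucOS NICD female replicate 1, 6 and 1 in lucOS sgp53 female replicates 2 and 3, and 1 in lucOS NICD male replicate 2. No luc T cell had it, which again allows a share of up to 0.143%. It had 5 nucleotide forms, 3 of which occurred in lucOS sgp53 female replicate 2. Forms differ from form 1 by A21G with or without C24G, C24A or G18A. All 10 of its T cells with an alpha chain, in 3 animals, had the same alpha CDR3 protein of TRAV6N-6 and TRAJ22. In addition, 6 clonotypes with the same V and J genes lay 1 residue away, with 59 T cells in 5 animals, 58 of them lucOS. TRBV16 receptor 7, with 45 T cells, was among these neighbours and had another alpha chain, TRAV9-2 with TRAJ30, in all 27 T cells with one. TRBV16 receptor 3 was another neighbour, with 5 T cells in 2 lucOS sgp53 animals.

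**Figure D3:**
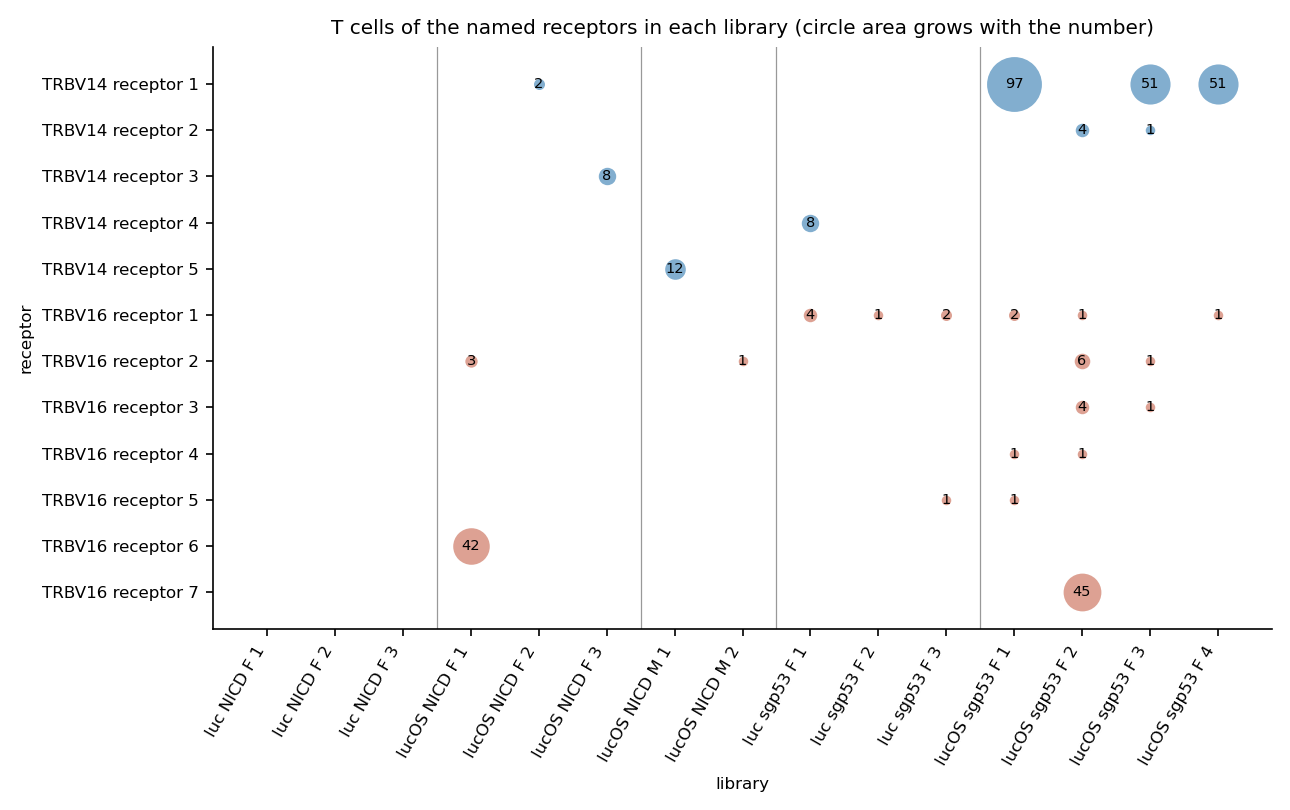
Numbers and circle areas give the T cells of each named receptor (rows) in each library (columns), F female and M male, with lines between groups. TRBV14 receptor 1 fills 3 lucOS sgp53 libraries with 97, 51 and 51 T cells, and TRBV16 receptor 1 appears in 1 library of each sgp53 animal and in no NICD library.

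The share of clonotypes found in more than 1 animal did not pass the test for either gene. Over all TRBV entries 79 of 4814 clonotypes (1.64%) were found in 2 or more animals, 23 of them with the same alpha CDR3 in 2 or more. TRBV14 had 2 of 144 (1.39%) and TRBV16 5 of 266 (1.88%), of which 1 and 2 had the same alpha. Per animal, shared clonotypes made up 2.15% of TRBV14 and 3.96% of all other clonotypes, a difference of -1.80 points ± 2.24 in 9 animals (exact permutation adjusted p = 0.0994). For TRBV16 it was 5.30 against 3.88%, a difference of 1.42 points ± 5.24 in 12 animals (exact permutation adjusted p = 0.542). In this comparison 30.0% of the 20 entries passed. In the 2 tumours of 1 animal, 1 TRBV14 clonotype was in both (7.14 and 8.33% of the clonotypes of the first and second tumour), and it held 78.5 and 82.3% of their TRBV14 T cells. For TRBV16, 3 clonotypes were in both (15% of each), with 13.6 and 22.7% of T cells. For all other TRBV entries together, 54 clonotypes were in both (15.8 and 18.3% of clonotypes), with 48.8 and 55.5% of T cells.

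Among the remaining named receptors, TRBV14 receptor 2 had 5 T cells in 2 lucOS sgp53 animals, TRBV14 receptor 4 had 8 T cells in luc sgp53 female replicate 1 and TRBV14 receptor 5 had 12 T cells in lucOS NICD male replicate 1. TRBV16 receptors 4 and 5 had 2 T cells each, in 2 animals each. TRBV16 receptor 6, in lucOS NICD female replicate 1, held 42 of 432 T cells (9.72%, Wilson 95% interval 7.27 to 12.9%), with TRAV4-3 and TRAJ43 in all 39 with an alpha chain. TRBV16 receptor 7, in lucOS sgp53 female replicate 2, held 45 of 828 (5.43%, 4.09 to 7.19%).

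TRBV16 clonotypes used the TRBJ2 cluster, the J segments nearest the second constant region gene, more than other clonotypes of the same animal. The share with a TRBJ2 segment was 77.7% for TRBV16 and 67.2% for all other clonotypes, a difference of 10.5 points ± 8.26 (SD). It was higher in 12 of 12 animals (exact sign-flip permutation p = 0.000488, the smallest possible, adjusted p = 0.00977). TRBV16 ran from 66.7% in lucOS NICD female replicate 2, with 6 clonotypes, to 100% in lucOS NICD male replicate 1, with 17, and the other clonotypes from 63.6 to 72.6%. In this measure 10.0% of the 20 entries passed, and TRBV16 was the only one of those passing that was higher (5.00%). A larger excess, 14.1 points for TRBV17, did not pass (exact sign-flip permutation adjusted p = 0.078). It was higher in 8 of 9 animals, so an excess of TRBJ2 was not particular to TRBV16. TRBV14 had 74.5 against 68.1%, higher in 6 of 9 animals, a difference of 6.37 points ± 19.0 (exact permutation adjusted p = 0.514). The TRBV14 values ran from 44.4 to 100%, on 6 to 33 clonotypes an animal. Animals with fewer than 5 clonotypes of a gene were left out, which left 9 animals for TRBV14 and 12 for TRBV16.

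**Figure D4:**
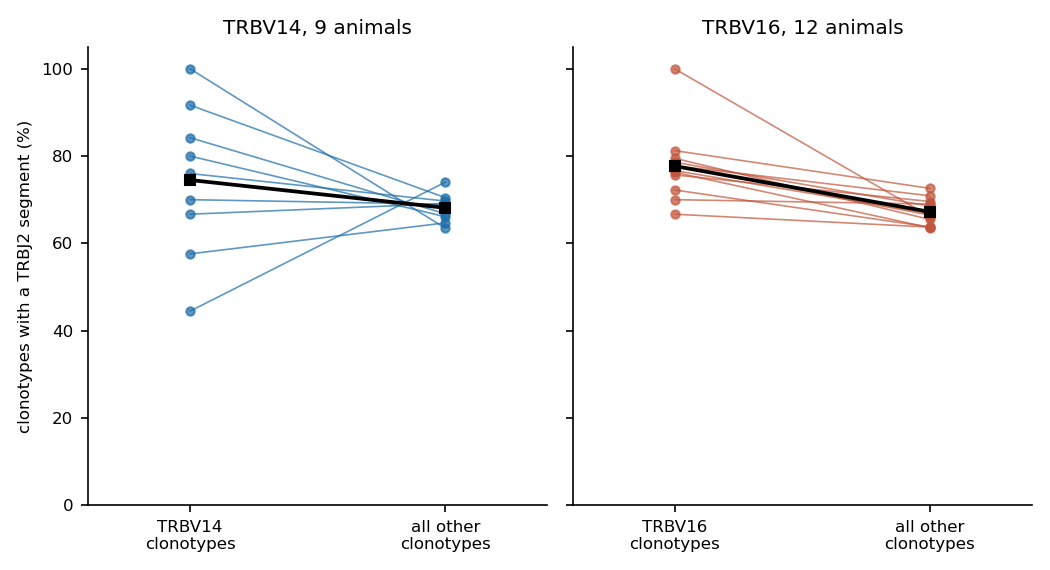
Each line joins, for 1 animal, the percentage of TRBV14 (left) or TRBV16 (right) clonotypes with a TRBJ2 segment to that of all other clonotypes; black squares are means. All 12 TRBV16 lines fall from left to right, with means of 77.7 and 67.2%, while TRBV14 lines run both ways.

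Within the cluster, TRBJ2-7, TRBJ2-5 and TRBJ2-1 were the 3 segments most used by both genes. TRBJ2-7 made up 24.4% ± 7.16 (SD over 12 animals) of TRBV16 clonotypes against 19.8% ± 2.42 of the others. TRBJ2-5 made up 20.9% ± 9.77 against 11.3% ± 2.22 and was higher in 11 of 12 animals, the largest excess for TRBV16. TRBJ2-1 was lower, with 11.8 against 13.3%. The segment furthest below the others in TRBV16 was TRBJ1-2 (2.71 against 6.02%). For TRBV14, TRBJ2-7 had 21.4 against 19.97%, TRBJ2-5 had 18.0 against 12.1% and TRBJ1-4 had 11.98 against 6.72%. Furthest below the others in TRBV14 were TRBJ1-1 (5.31 against 9.39%), TRBJ2-4 (5.25 against 8.25%) and TRBJ1-2 (2.44 against 5.38%). TRBJ1-6 was listed at 0 in all 136 TRBV14 clonotypes of the 9 animals, against 2.65% of the others. Single segments were not tested.

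**Figure D5:**
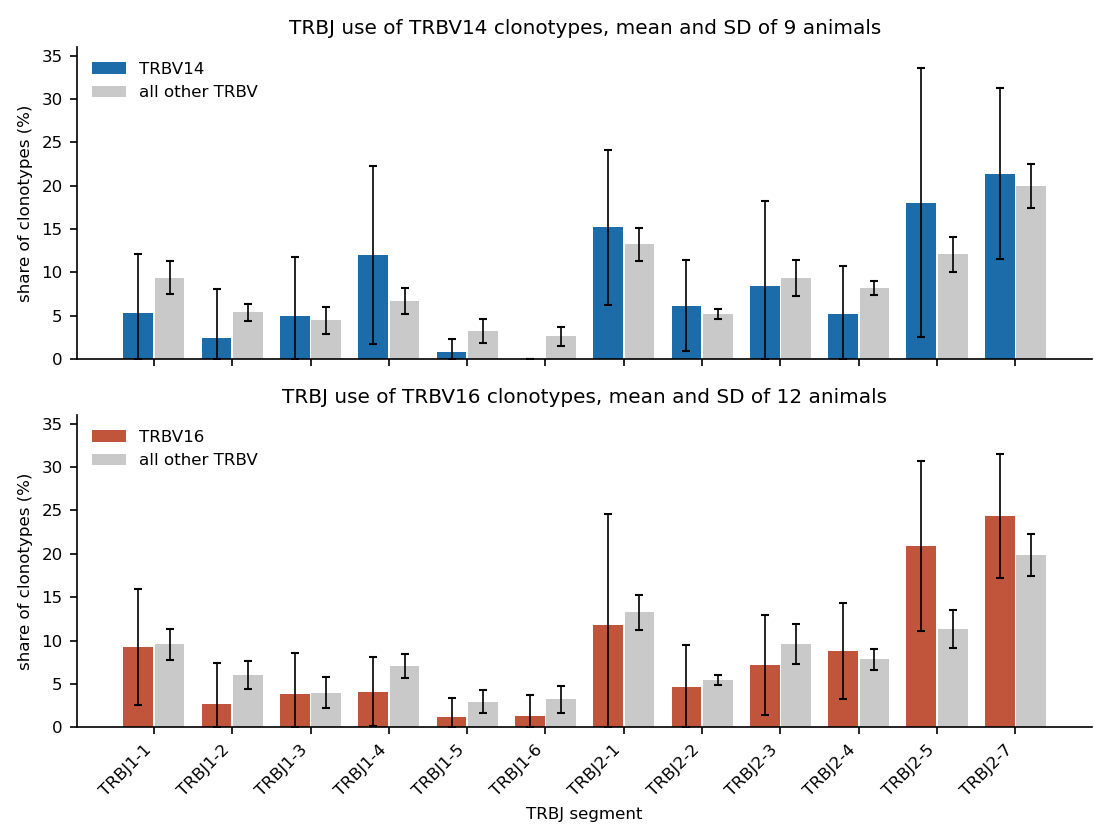
Bars give the mean share of clonotypes with each TRBJ segment for TRBV14 (upper, 9 animals) and TRBV16 (lower, 12 animals) in color and all other TRBV clonotypes of the same animals in grey, with SD. TRBJ2-5 stands highest above the grey bars in TRBV16, at 20.9 against 11.3%.

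CDR3 loops were shorter with TRBV14 and longer with TRBV16 on average, and neither difference passed the test. TRBV14 clonotypes had a mean of 13.6 residues against 13.9, a difference of -0.35 residues ± 0.51 (SD), lower in 8 of 9 animals (exact sign-flip permutation adjusted p = 0.127). TRBV16 had 14.1 against 13.9, a difference of 0.28 ± 0.43, higher in 9 of 12 animals (exact permutation adjusted p = 0.124). In this measure 20% of the entries passed. Without lucOS sgp53 female replicate 2, in which both genes ran the other way, each passed (exact permutation adjusted p = 0.0260 for each, at -0.45 and 0.35 residues). With each T cell counted, TRBV16 passed (0.65 residues, exact permutation adjusted p = 0.0220). By median length the TRBV16 difference was 0.042 residues (exact permutation adjusted p = 1), and over animals with at least 10 TRBV14 clonotypes the TRBV14 difference was -0.15 residues (exact permutation adjusted p = 0.56). Loops of 11 residues, the length of TRBV14 receptor 1, made up 9.52% of TRBV14, 3.61% of TRBV16 and 5.14% of all other clonotypes. Loops of 16 and 17 residues made up 13.4 and 5.42% of TRBV16 clonotypes, against 9.10 and 2.05% of all others. The stretch between the V and J ends, D bases included, had a median of 11 bases in both genes.

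Among the alpha chains of TRBV14 clonotypes, TRAV12-3 was the most used V segment and TRAJ4 the most used J segment. TRAV segments have near-identical copies in mouse, whose letters (D and N) were dropped for these counts, so a split between copies is uncertain. TRAV12-3 made up 13.1% ± 7.34 (SD over 8 animals) of TRBV14 clonotypes with an alpha chain against 4.21% ± 0.82 of the others, higher in 7 of 8 animals. TRAV9-3 followed with 6.87 against 2.01%, higher in 5 of 8 animals, and TRAV4-3 with 6.07 against 1.89%, higher in only 2 of 8. TRAV14-2, TRAV16 and TRAV13-1 lay furthest below, the first at 0 against 3.70%. TRAJ4 made up 9.24% ± 9.36 against 1.06% ± 0.62, higher in 6 of 8 animals, and TRAJ47 6.27 against 1.27%. Counted over all animals, TRAV12-3 with TRAJ4 was in 5 of 121 TRBV14 clonotypes (4.13%) from 5 animals, in 0 of 220 TRBV16 clonotypes and in 4 of 3572 others (0.112%). The 5 clonotypes had different beta CDR3 loops and only 8 T cells. They came from 1 luc and 4 lucOS animals. Since they were noticed after the values were seen, no test was made.

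These 5 clonotypes used 3 alpha CDR3 proteins, which are shown because 2 of them recurred in 2 animals each. Alpha 1 was also in 3 T cells and alpha 2 in 1 T cell with another TRBV entry. Capitals mark the positions at which the 4 sequences of 45 bases differ. The first 2 sequences have 1 protein and the next 2 have another.
TRAV12-3 with TRAJ4, alpha 1 form 1: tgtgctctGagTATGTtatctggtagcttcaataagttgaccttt
TRAV12-3 with TRAJ4, alpha 1 form 2: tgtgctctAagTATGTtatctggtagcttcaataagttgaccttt
TRAV12-3 with TRAJ4, alpha 2 form 1: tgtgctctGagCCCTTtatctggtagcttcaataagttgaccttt
TRAV12-3 with TRAJ4, alpha 2 form 2: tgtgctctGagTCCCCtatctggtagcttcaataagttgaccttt
TRAV12-3 with TRAJ4, alpha 3: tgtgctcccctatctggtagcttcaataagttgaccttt

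Among the alpha chains of TRBV16 clonotypes, TRAV16 was first, with 7.88% ± 6.86 (SD over 11 animals) against 4.11% ± 1.17, higher in 8 of 11 animals. TRAV13-1 had 7.58 against 4.66% and TRAV6-6 had 6.31 against 3.55%, and TRAV9-3 had the third largest excess (4.98 against 2.10%). In that order, they were higher in 7, 5 and 5 of 11 animals. TRAV1 was at 0 against 3.41%, TRAV11 had 0.909 against 3.46% and TRAV7-5 had 1.24 against 2.92%.

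TRAV11 with TRAJ18 and TRAV1 with TRAJ33 are the alpha chains of invariant natural killer T cells and of mucosal-associated invariant T cells, which pair with few TRBV genes. The first was in 0 of 381 TRBV14 T cells with an alpha chain, which allows a share of up to 0.787%, and in 2 of 320 with TRBV16 (0.625%, Wilson 95% interval 0.172 to 2.25%). Among all other T cells it was in 125 of 5348 (2.34%, 1.97 to 2.78%). The second was in 1 of 381 with TRBV14 (0.262%, 0.0463 to 1.47%) and 0 of 320 with TRBV16 (up to 0.938%), against 127 of 5348 (2.37%, 2.00 to 2.82%). Of the 381 TRBV14 T cells, 183 belonged to TRBV14 receptor 1 and had its alpha chain, so fewer independent cells stand behind the TRBV14 limits. T cells of 1 clone and 1 animal share their source, so these intervals cover counting error only.

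Member T cells had a median of 12 UMIs for the TRBV14 and 13 for the TRBV16 contig, against 9 for all other TRBV contigs. An alpha chain was found for 86.0% of TRBV14, 78.4% of TRBV16 and 79.2% of other T cells. A second productive beta contig was found in 1.35, 4.66 and 4.72% of them. These are pooled T cells, and 201 of the 443 with TRBV14 belonged to TRBV14 receptor 1. Of those 201, 183 had an alpha chain and 0 a second beta contig, with a median of 15 UMIs. Medians of single libraries ran from 2 to 25 UMIs for TRBV14.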

How the data were processed

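Receptor contigs were assembled and annotated by the authors. Cell Ranger and Seurat and the build mm10 are named in the submitters' processing notes, with no version. The deposited tables list per contig its segments, CDR3, read count and UMI count, with a flag for cells. Kept were productive, high-confidence TRB contigs of cell barcodes, 1 per barcode (most UMIs, 24 member contigs set aside). T1 and T2, the tumours of 1 animal, were averaged for shares. Of 56 samples in the series, the 15 receptor libraries were used, and the bulk libraries were not analysed here. The genes, lists and alternatives were chosen with earlier results of these data known. The p-values of the group comparisons of shares therefore support nothing by themselves.

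Animals were the replicates. Group contrasts of the 20 TRBV entries with a mean T cell share of at least 1% used exact permutation tests over 12 females (400 arrangements). Measures within an animal used exact sign-flip permutation tests over animals with at least 5 clonotypes (or T cells) of the gene. P-values were Benjamini-Hochberg adjusted over the entries, and intervals are Wilson 95%. Clonotypes to be named were those found in most animals (at most 6 per gene) and the largest of each group with at least 3 T cells. Segments named were among the most used and the most different. The tests were tested on simulated data. The simulated data held no clones, unlike the T cells here. V and J ends are consensus bases in at least 50% of sequences. RefSeq gave 3 gene positions. Python 3.11.15, numpy 2.4.6, pandas 2.3.3, R 4.3.3 and edgeR 4.0.16 were used.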

Additional observations from a re-analysis of the deposited data

How the results depend on the processing

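Of 428 recomputed values of 18 tested results, 416 kept the direction and the side of the threshold. The TRBJ2 excess of TRBV16 passed under every setting and without each animal (8.37 to 12.8 points, adjusted p 0.00977 to 0.0391). The TRBV16 T cell share, NICD minus sgp53, turned negative on the log2 scale (-0.072), in edgeR's quasi-likelihood test (log2 fold change -0.091) and without lucOS NICD female replicate 1 (-1.33) or lucOS sgp53 female replicate 3 (-0.26), with a range of -1.33 to 1.28 points over left-out animals. With edgeR the TRBV14 T cell share passed for lucOS minus luc (log2 fold change 1.23) and NICD minus sgp53 (-1.46). TRBV14 T cells in clonotypes passed only at a size of 3 or more (21.8 points) and not at a still larger size. Mean CDR3 length passed for TRBV16 with each T cell counted (0.65 residues) and for both genes without lucOS sgp53 female replicate 2, with ranges over left-out animals of -0.45 to -0.21 (TRBV14) and 0.20 to 0.35 (TRBV16). The TRBV14 share of shared clonotypes passed without lucOS sgp53 female replicate 3 (-2.87 points, range -2.87 to -1.32) and was 0.000665 points with clonotypes by CDR3 nucleotides. The cause was not tested. The group comparisons were not paired, since each animal belongs to 1 group. The measures within an animal were paired by animal. The planned comparison of Trbv14 and Trbv16 in bulk tumours was not run.

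Small libraries limit the luc NICD shares, which rest on 1 to 6 TRBV14 T cells. Within a library, receptors under a few cells can be missed. Permutation p-values give how often relabelled or sign-flipped values of these animals reached at least the observed difference, and speak for these groups only. Both genes' group comparisons can reach a p of 0.005 at the smallest, so an adjusted p under 0.05 over 20 entries needs several entries at that limit.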
